A study of Mus musculus with 6 samples.

Results

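The skin libraries compared here are the late C-PC library and the middle control, 2 of the 6 libraries of a mouse wound-healing series that hold the most reads of keratinocytes, the cells of the epidermis and of the hair follicle epithelium. In the series, skin was left without treatment (the controls) or was given C-phycocyanin (C-PC), a pigment protein that cyanobacteria use to capture light, and healing was sampled at stages named early, middle and late. Each of these 6 groups has 1 RNA sequencing library, and the labels used here do not state mouse strain, age, sex, wound model or dose. The pair was chosen by the reads of Krt14, Krt5 and Krt6a, so these values describe the choice and are not a finding. The late C-PC library differs from the middle control in stage and in treatment, which cannot be told apart, and with 1 library each there is no replicate check and no test. Intervals given after a ratio are 95% intervals that cover counting error only.

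The epidermis renews itself from a basal layer of Krt5 and Krt14 cells, which move up, switch to Krt1 and Krt10 and end as cornified cells with a cross-linked envelope. At a wound edge, keratinocytes switch on Krt6, Krt16 and Krt17 together with proteases, integrins and inflammatory signals while they migrate over granulation tissue, a bed of fibroblasts, new vessels and leukocytes. The hair follicle is a downgrowth of the same epithelium. During its growth phase, called anagen, matrix cells in the bulb divide and differentiate into an inner root sheath, marked by trichohyalin and its own keratins, and into a hair shaft of hard keratins and keratin-associated proteins, under signals that pass between the matrix and the dermal papilla.

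The sum of Krt14, Krt5 and Krt6a was 2116 CPM (reads scaled to the library total of reads on genes) in the late C-PC library and 1477 CPM in the middle control. The next library, the early C-PC library, stood at 3.92 CPM, the late control at 0.124 CPM from 2 reads, and the early control and the middle C-PC library had 0 reads. Tchh, the trichohyalin gene (ENSMUSG00000052415, chromosome 3, 93442330 to 93449077 on build GRCm38), stood at 18637 CPM in the late C-PC library, at 23.5 CPM in the middle control and between 0.0618 and 1.31 CPM in the other 4. These are the values by which the libraries were chosen and described as bearing epidermis, and they lend that description no further support. The other 4 libraries, also labelled skin, held next to no reads of these keratinocyte markers, and 2 of them were rich in skeletal muscle, namely the late control and the middle C-PC library, where the muscle list summed to 193339 and 198190 CPM. It summed to 13743 CPM in the middle control and 3245 CPM in the late C-PC library. The 6 libraries held between 15863637 and 18028674 reads on genes, 17033889 of them in the late C-PC library and 15863637 in the middle control.

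**Figure D1:**
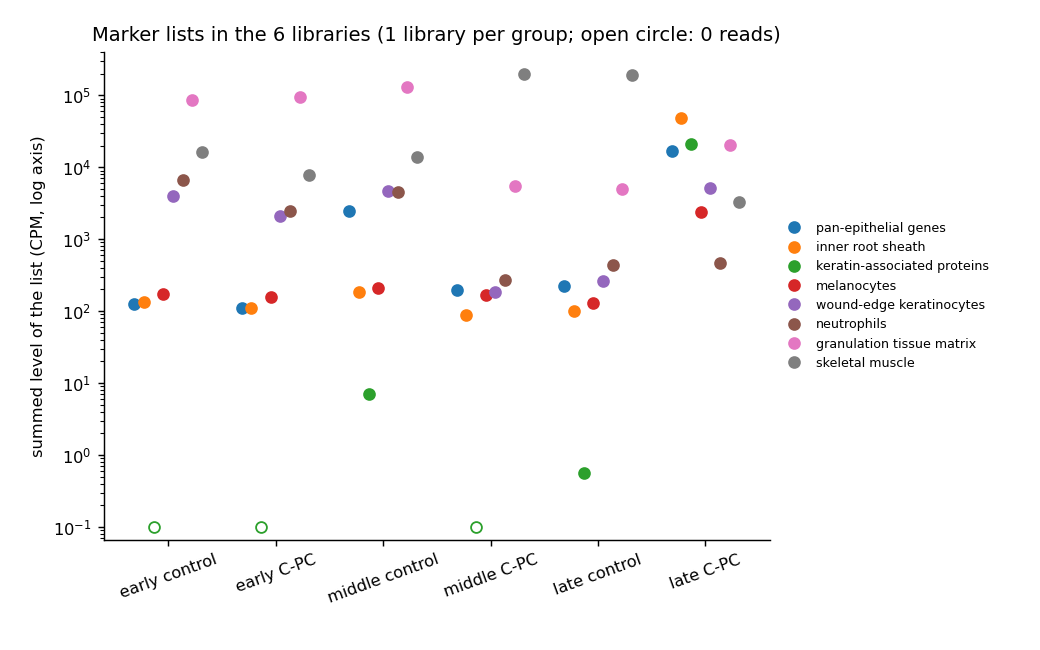
Summed level of 8 marker lists (CPM, log axis) in each of the 6 libraries, 1 point per list and library, with open circles for lists at 0 reads. The inner root sheath list reaches 48498 CPM in the late C-PC library against 187 CPM in the middle control, while the neutrophil list stands at 463 CPM against 4490 CPM.

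The promoters of 4 genes that stand for the main contrasts are shown, from RefSeq on GRCm38.p6, as the 250 bases before the RefSeq start of the gene on its own strand, 5′ to 3′. The RefSeq starts of Krt71, Sprr1a and Sprr1b lie a few bases inside the gene coordinates of the deposited tables, and distances are counted from the RefSeq start. Krt71 (the inner root sheath) and Krtap8-1 (the hair shaft) are among the most abundant transcripts of the late C-PC library, and Sprr1a and Sprr1b are related genes of the cornified envelope on chromosome 3 that differed in opposite directions. Capitals mark matches on either strand to TATAAA, the letters of a TATA box, and to TGANTCA. The latter, where N is any base, is a loose pattern for sites of AP-1 factors and is called the AP-1 letters below.
Krt71 (chr15:101743098-101743347, minus strand): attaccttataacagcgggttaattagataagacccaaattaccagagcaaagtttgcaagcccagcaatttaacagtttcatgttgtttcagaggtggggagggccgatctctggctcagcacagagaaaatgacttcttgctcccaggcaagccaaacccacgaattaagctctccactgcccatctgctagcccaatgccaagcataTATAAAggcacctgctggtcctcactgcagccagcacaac
Krtap8-1 (chr16:89487953-89488202, minus strand): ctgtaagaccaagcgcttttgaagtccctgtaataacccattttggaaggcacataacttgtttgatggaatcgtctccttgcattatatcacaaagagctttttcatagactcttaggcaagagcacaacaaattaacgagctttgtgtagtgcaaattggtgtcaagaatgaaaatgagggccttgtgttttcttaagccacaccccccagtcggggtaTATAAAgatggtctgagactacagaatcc
Sprr1a (chr3:92485882-92486131, minus strand): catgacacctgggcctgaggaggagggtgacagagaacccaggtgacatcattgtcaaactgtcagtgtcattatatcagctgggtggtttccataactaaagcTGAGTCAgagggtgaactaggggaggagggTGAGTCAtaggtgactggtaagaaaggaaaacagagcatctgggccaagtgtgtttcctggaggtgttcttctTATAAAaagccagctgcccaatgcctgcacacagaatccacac
Sprr1b (chr3:92438780-92439029, minus strand): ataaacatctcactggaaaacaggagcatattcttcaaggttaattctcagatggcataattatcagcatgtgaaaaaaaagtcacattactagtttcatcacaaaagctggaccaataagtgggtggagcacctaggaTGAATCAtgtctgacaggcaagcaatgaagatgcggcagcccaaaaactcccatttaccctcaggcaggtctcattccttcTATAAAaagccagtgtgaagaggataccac

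All 4 windows hold the TATA letters within 43 bases of the start. Sprr1a holds 2 matches to the AP-1 letters, 110 to 116 and 140 to 146 bases before the start, and Sprr1b holds 1, at 105 to 111 bases. The Sprr1a matches read TGAGTCA and the Sprr1b match reads TGAATCA, so they differ at the free base. The pair that differed in opposite directions thus shares the TATA letters and a match to the loose AP-1 pattern. Of 27025 promoters in the table, 12.9% hold the TATA letters, 6.87% the AP-1 letters and 3.18% CTTTGAT, the letters bound by LEF and TCF factors, all searched on both strands. The TATA letters were found in 41 of 51 keratin-associated protein promoters (80.4%), 6 of 9 hair shaft keratin promoters (66.7%), 7 of 15 inner root sheath promoters (46.7%) and 13 of 27 wound-edge promoters (48.1%). The AP-1 letters were found in 10 of 27 wound-edge promoters (37.0%), 10 of 51 keratin-associated protein promoters (19.6%) and 2 of 15 inner root sheath promoters (13.3%), and in 0 of 9 hair shaft keratin promoters. The LEF and TCF letters were found in 3 of 51 keratin-associated protein promoters (5.88%) and in 0 of 15, 0 of 9 and 0 of 27 of the inner root sheath, hair shaft keratin and wound-edge promoters. A match describes the letters and does not show that a factor is bound.

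Reads of 20459 genes listed in both deposited tables were scaled together by TMM, and the 17067 of them that reached 10 reads in either library were expressed as log2 ratios of the late C-PC library over the middle control, with a pseudocount of 2 scaled reads. A gene was called apart at a difference of at least 2-fold with an interval that excludes equality. By this rule 6771 genes (39.7%) were apart, of which 2835 (16.6% of those compared) were higher and 3936 (23.1%) lower in the late C-PC library, and the median log2 ratio of all genes was 0.04. Counts for each list below are to be read beside these shares of 16.6% and 23.1%. At least 10-fold differences were found for 518 genes higher and 619 genes lower. Centred on the median of the pan-epithelial list instead, which asks how each gene stands relative to the epithelial transcripts, 214 genes were higher and 15927 lower. Ratios below are on the TMM scale, where a level that follows the amount of epithelium counts as a difference. A gene that passed the filter of 10 reads only through the library where it is high had to differ, so counts and medians over such genes are no support for a difference. Besides the shaft genes below, this held for 5 of 16 melanocyte, 4 of 26 follicle factor, 11 of 25 neutrophil and 10 of 32 cytokine genes. It also held for 12 of 20 T and NK cell genes, for 3 of 8 B and plasma cell genes, and for up to 4 genes in each other list. In whole tissue, fewer cells of a type and less RNA per cell cannot be told apart.

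**Figure D2:**
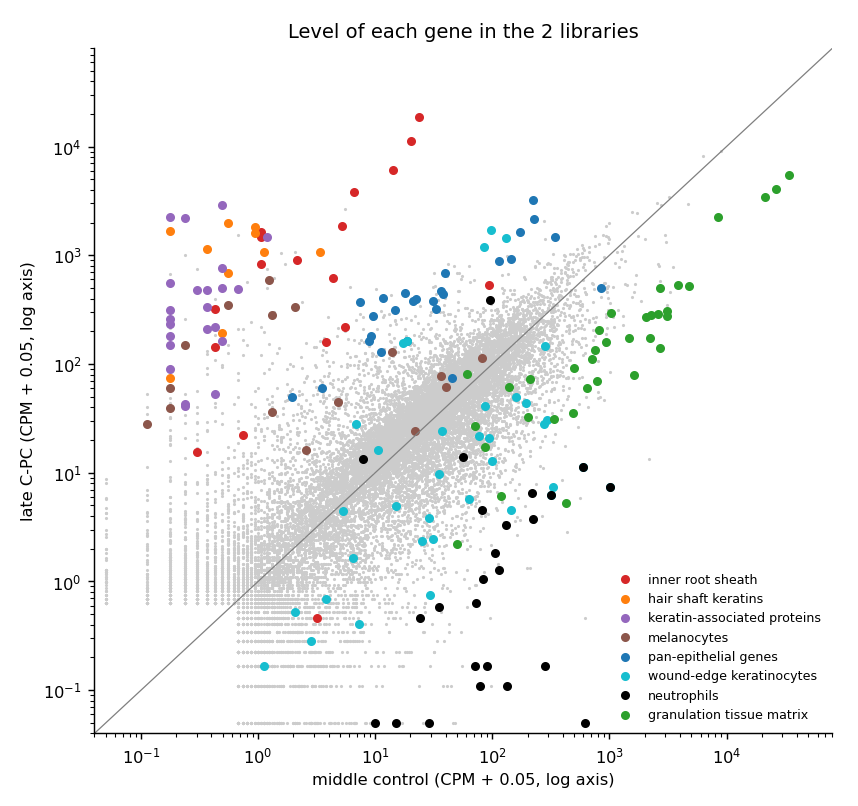
Level of each compared gene in the middle control (x axis) and the late C-PC library (y axis), both in CPM plus 0.05 on log axes, with 8 gene lists in colour and the line of equality in grey. Hair shaft, keratin-associated protein and inner root sheath genes lie far above the line, granulation tissue matrix and neutrophil genes below it, and wound-edge genes on both sides.

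Genes of the growing hair follicle had the highest ratios. Of 18 inner root sheath genes compared, 17 were higher in the late C-PC library and 1 was lower, against 16.6% and 23.1% of all genes, with a median log2 ratio of 8.45. Tchh, whose reads were used to describe the libraries, is counted among the higher genes and lends no support. Tchh had 373 reads in the middle control and 317456 in the late C-PC library, a log2 ratio of 9.51 (9.37 to 9.67). Krt71, a type II keratin of all inner root sheath layers (ENSMUSG00000051879, chromosome 15, 101733949 to 101743109), stood at 20.3 CPM against 11222 CPM, a log2 ratio of 8.99 (8.84 to 9.16). Its type I partners Krt25 and Krt27 stood at 14.2 and 6.49 CPM against 6087 and 3841 CPM, with log2 ratios of 8.61 (8.44 to 8.82) and 9.07 (8.82 to 9.39). The deiminase gene Padi3, whose enzyme modifies trichohyalin, stood at 2.08 against 901 CPM (8.57, 8.16 to 9.19). The lower member was Lipn, a lipase that the barrier lipid list also holds, with 50 reads against 7. The sheath keratins were thus present in the middle control, with 322 reads of Krt71, 226 of Krt25 and 103 of Krt27.

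The hair shaft keratins had between 2 and 53 reads in the middle control. Of 14 hard keratins with reads, 10 were compared and called higher in the late C-PC library (median log2 ratio 10.28), but 6 of them passed the filter on low reads only through that library. Krt81 had 2 reads against 28783 (12.65, 11.74 to 16.64), and Krt33a had 8 against 34016 (11.54, 10.86 to 13.05). Krt35, which is switched on low in the shaft, had the most reads of the list in the middle control, 53 against 18439 (8.18, 7.84 to 8.64). The other 4, Krt39, Krt40, Krt82 and Krt84, were listed only in the late table, with between 485 and 2600 reads. The keratin-associated proteins, which cross-link keratin filaments of the shaft, summed to 20977 CPM in the late C-PC library and 7.06 CPM in the middle control. Of 57 such genes that were listed, 23 were compared and called higher (median log2 ratio 9.69), but 21 of them passed the filter on low reads only through the late C-PC library, and 33 more had at least 10 reads and were listed only in the late table. Krtap15 had the highest ratio of any gene that the ranking covers, with 2 reads against 38527 (13.07, 12.17 to 17.06). The ranking covers protein-coding genes listed in both tables with a mean of at least 5 CPM, without symbols of the Gm and Rik kinds. Krtap7-1 led the family in level, at 2890 CPM against 0.441 CPM. Reads of Krt81, Krt83, Krt86, Krt87 and of the keratin-associated proteins can be split among near-identical members, so single ratios in these families are uncertain.

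Other proteins of the shaft followed, with 15 of 17 compared genes higher, none lower and a median log2 ratio of 7.14. Prr9, a proline-rich protein gene, stood at 5.42 against 2667 CPM (8.80, 8.53 to 9.15), S100a3, a calcium-binding protein of the cuticle, at 2.02 against 1082 CPM (8.87, 8.46 to 9.50), and Dsg4, a desmosomal cadherin of the shaft, at 0.819 against 243 CPM (7.91, 7.33 to 9.01). Outside the lists, Gprc5d, an orphan receptor of hard keratinizing cells, had 4 reads against 12779 (10.88, 10.07 to 13.30). Crnn, the cornulin gene of the same protein family as trichohyalin, had 2 reads against 11517 (11.33, 10.42 to 15.32). Of the 20 highest ratios in that ranking, 9 were keratin-associated proteins, 6 were hair shaft keratins and 2 were inner root sheath keratins, and the remaining 3 were Crnn, Gprc5d and Krt87.

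**Figure D3:**
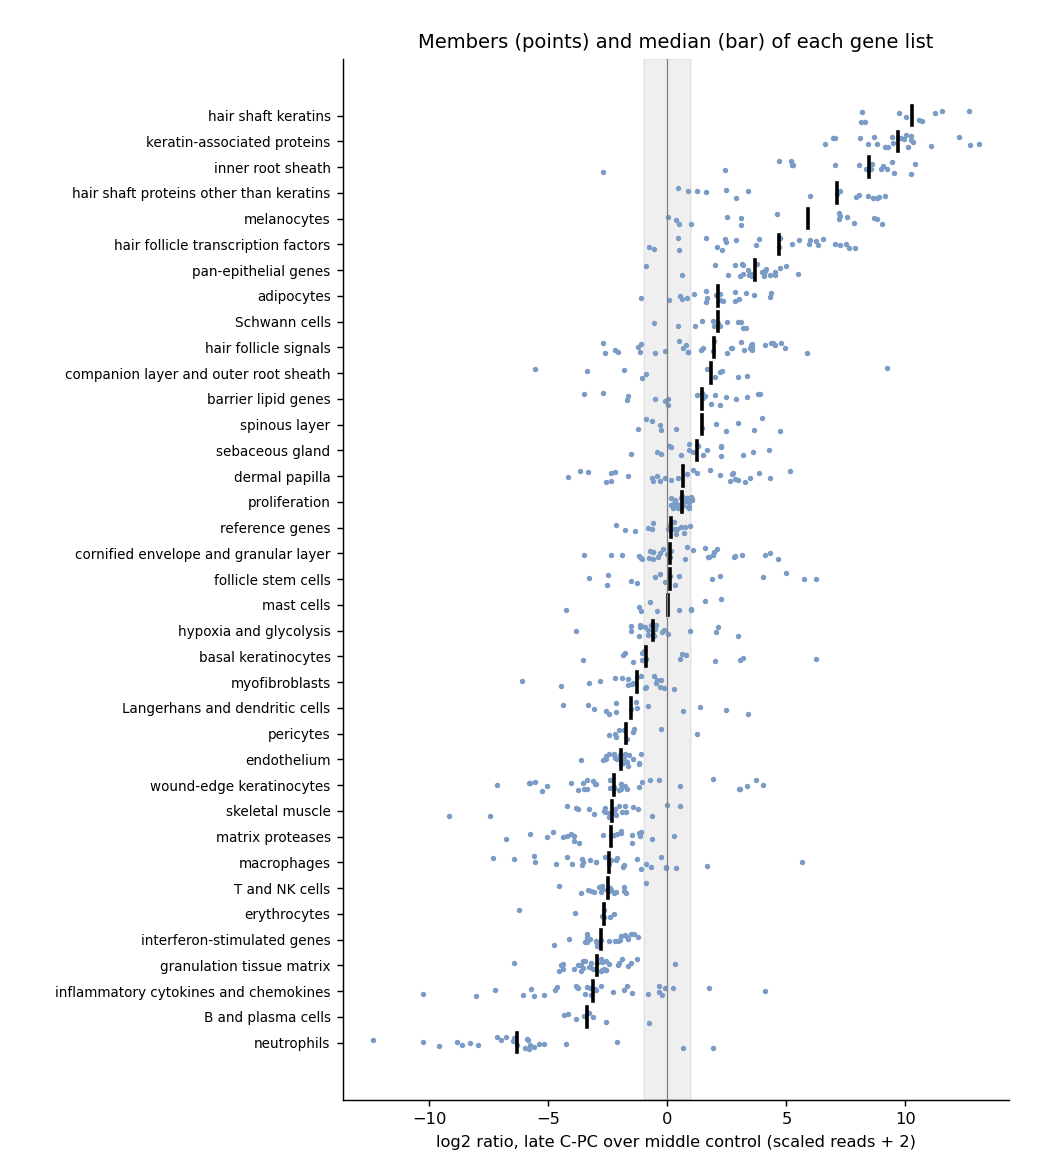
Log2 ratio of the late C-PC library over the middle control for every compared member of the 37 lists (points) with each list's median (black bar), ordered by median, and a grey band for less than 2-fold. Medians run from -6.33 for neutrophils to 10.28 for hair shaft keratins, and the wound-edge list spans members more than 10-fold apart in both directions.

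Transcription factors of the follicle were higher in 22 of 26 genes and lower in none, with a median log2 ratio of 4.70. Foxn1, whose loss gives the nude mouse, stood at 0.693 CPM in the middle control and 208 CPM in the late C-PC library (7.89, 7.27 to 9.12). Hoxc13, which drives hair keratin genes, had 16 reads against 3730 (7.49, 6.95 to 8.46), Msx2 had 17 against 3380 (7.27, 6.74 to 8.20) and Dlx3 had 68 against 10490 (7.02, 6.71 to 7.42). Lef1, the Wnt effector of the hair precortex, stood at 1.20 against 89.4 CPM (5.98, 5.46 to 6.84), and Gata3, which sets inner root sheath fate, at 3.78 against 158 CPM (5.23, 4.90 to 5.66). The 4 genes not apart were Gli3, Runx1, Runx3 and Trps1, which dermal or blood cells also use. The part of those cells in these ratios was not tested.

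Signals between follicle and dermis differed in both directions, with 21 of 35 compared genes higher, 7 lower and a median log2 ratio of 1.94. Shh, the ligand of the anagen bulb, had 361 reads in the late C-PC library and was not listed in the middle table, where a gene needs at least 2 reads over the pair of libraries. Among the genes of the Hedgehog response, Gli1 stood at 2.40 against 68.9 CPM (4.67, 4.27 to 5.24) and Ptch1 at 29.6 against 213 CPM (2.73, 2.60 to 2.88). Wnt10b, a Wnt ligand of early anagen, stood at 1.39 against 32.9 CPM (4.34, 3.84 to 5.14), and Wnt11 at 3.09 against 93.8 CPM (4.76, 4.40 to 5.25). Bmp7 stood at 3.78 against 129 CPM (4.94, 4.61 to 5.37). Fgf5, the factor that ends anagen, had 1362 reads in the late C-PC library and was likewise listed only in the late table, so genes linked to the start and to the end of anagen were both present. The lower genes, 7 of 35 against 23.1% of all genes, included Igf1 at 424 against 74.9 CPM (-2.61, -2.70 to -2.53), Tgfb2 at 51.4 against 8.51 CPM (-2.69, -2.97 to -2.45), Fgf7 at 33.9 against 7.81 CPM (-2.21, -2.52 to -1.95) and Fst, the follistatin gene, at 76.8 against 19.6 CPM (-2.07, -2.26 to -1.91), with Fgf18, Dkk1 and Pdgfa also lower.

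The dermal papilla list gave 14 genes higher and 8 lower of 30, against 16.6% and 23.1% of all genes, so the lower count was near the background share. The median log2 ratio was 0.64, but the summed level was lower in the late C-PC library, at 882 CPM against 1722 CPM in the middle control. Corin, a serine protease restricted to the papilla within skin, had 18 reads against 818 (5.15, 4.62 to 6.05), and Rspo4, a Wnt agonist, had 14 against 360 (4.30, 3.70 to 5.36). Members that other fibroblasts also express went the other way, among them Sfrp2 at 662 against 40.0 CPM (-4.16, -4.27 to -4.05), and the proteoglycan gene Vcan at 502 against 91.4 CPM (-2.57, -2.65 to -2.49). The fibroblast matrix list moved the same way as these members, from 131124 to 20258 CPM, and its part in them was not tested. Among 17 genes of the follicle stem cell list 6 were higher and 5 lower, against 16.6% and 23.1% of all genes. The median of the list was 0.11, and its summed level was 6025 CPM in the middle control and 1941 CPM in the late C-PC library. Krt15, a keratin of the bulge and outer root sheath, stood at 6.05 against 511 CPM (6.26, 6.00 to 6.59), Lhx2 at 0.946 against 60.3 CPM (5.72, 5.15 to 6.72) and Lgr5 at 13.5 against 53.3 CPM (1.86, 1.65 to 2.09). Cd34, which in mouse marks bulge cells but also vessels and fibroblasts, was lower, at 374 against 141 CPM (-1.52, -1.59 to -1.45).

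Most genes of pigment cells were higher in the late C-PC library, where the melanocyte list summed to 2395 CPM against 208 CPM. Of 16 melanocyte genes compared, 12 were higher and none lower, with a median log2 ratio of 5.89. The melanin enzymes Tyr, Tyrp1 and Dct had 3, 8 and 19 reads in the middle control and 2549, 5964 and 10001 in the late C-PC library, with log2 ratios of 8.82 (7.97 to 11.79), 9.03 (8.35 to 10.54) and 8.69 (8.18 to 9.56). Oca2 and Gpr143 were listed only in the late table, with 888 and 164 reads. The 4 genes not apart, Kit, Kitl, Mitf and Rab27a, are also made by mast cells, fibroblasts and other cells. The part of those cells was not tested.

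Sebaceous gland genes were higher in 11 of 19 and lower in 1, with a median log2 ratio of 1.24. The list summed to 1196 CPM in the late C-PC library and 730 CPM in the middle control. It summed to 2008 and 3078 CPM in the muscle-rich middle C-PC library and late control, and to 854 and 1186 CPM in the early control and early C-PC library. A high sum of this list was thus not particular to the late C-PC library. Elovl3, a fatty acid elongase of sebum, stood at 3.34 against 71.2 CPM (4.25, 3.90 to 4.73) and Scd3, a desaturase, at 2.21 against 30.4 CPM (3.60, 3.17 to 4.21). Mc5r, a sebocyte receptor, had 10 reads against 121 (3.16, 2.45 to 4.48). The lower gene was Plin2, a lipid droplet protein that macrophages also carry, at 181 against 67.6 CPM (-1.53, -1.64 to -1.44).

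Within the epidermal genes themselves, the libraries differed gene by gene. Of 26 pan-epithelial genes, 24 were higher in the late C-PC library and none lower, with a median log2 ratio of 3.66. Cdh1, the epithelial cadherin, stood at 38.1 against 438 CPM (3.41, 3.29 to 3.53), Dsp, the desmoplakin of desmosomes, at 224 against 3256 CPM (3.75, 3.70 to 3.80), and the transcription factor Grhl1 at 11.5 against 402 CPM (5.00, 4.81 to 5.24). Trp63, which keeps stratified epithelium in its identity, stood at 32.7 against 319 CPM (3.17, 3.04 to 3.31). The exceptions were Krt14, at 854 against 498 CPM (-0.89, -0.93 to -0.85), and the hemidesmosome integrin Itgb4, at 45.4 against 74.7 CPM (0.60, 0.47 to 0.74), neither of which reached 2-fold. Summed over the list, the level was 16565 CPM against 2457 CPM.

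Krt5 and Krt14, which pair in the filaments of basal cells, are among the genes that chose the libraries, so their values are a description only. Both are counted in the pan-epithelial, basal and outer root sheath lists, and Krt6a in the outer root sheath list. Krt5 (ENSMUSG00000061527, chromosome 15, 101707070 to 101712898) stood at 342 against 1473 CPM, a log2 ratio of 2.00 (1.95 to 2.04), while Krt14 (ENSMUSG00000045545, chromosome 11, 100203162 to 100207548) was not apart. Per 100 Krt14 reads there were 40.0 Krt5 reads in the middle control and 296 in the late C-PC library. On the same base, Krt15 went from 0.709 to 103, Krt17 from 15.5 to 290 and Krt75, the keratin of the companion layer between the sheaths, from 0.177 to 212. Krt1 stood at 52.9 and 41.1 and Krt6a at 32.9 and 29.2 per 100 Krt14 reads, close to each other in the 2 libraries, and Krt6b went from 38.4 to 1.49. Other epithelial genes were higher on this base, with Dsp at 26.2 and 654, Cdh1 at 4.46 and 88 and Trp63 at 3.82 and 64. A level per Krt14 read is thus not a level per amount of epithelium. Of 12 genes of the companion layer and outer root sheath 7 were higher and 4 lower, with a median log2 ratio of 1.83. Among them Krt6a and Krt16, both lower, and Krt17, which was higher, are also on the wound-edge list below. The 2 lists are therefore not separate results. The basal list as a whole gave 4 genes higher and 6 lower of 16, with a median of -0.91. Among its lower genes was Col7a1, the anchoring fibril collagen, at 226 against 20.9 CPM (-3.54, -3.71 to -3.39). The fibroblast matrix list stood at 131124 against 20258 CPM beside it, and its part in this ratio was not tested.

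The wound-edge list was lower in 27 of 36 genes and higher in 6, with a median log2 ratio of -2.24. Over all genes 23.1% were lower and 16.6% higher, so the higher count was near the background share. Its summed level was 4614 CPM in the middle control and 5201 CPM in the late C-PC library. It was 3941 CPM in the early control, which had 0 reads of Krt14, Krt5 and Krt6a, and 2118 CPM in the early C-PC library. In the muscle-rich middle C-PC library and late control it was 185 and 265 CPM. The list therefore does not measure keratinocytes alone. Krt6b stood at 328 against 7.40 CPM (-5.56, -5.85 to -5.33), Krt16 at 275 against 28.1 CPM (-3.39, -3.54 to -3.26), and Krt6a at 281 against 145 CPM (-1.06, -1.14 to -0.99), although reads of Krt6a and Krt6b can be split between them. Krt6a is among the genes that chose the libraries, so its value and its place in the count are a description only. Itga5, the fibronectin receptor chain that migrating keratinocytes switch on, stood at 292 against 30.6 CPM (-3.36, -3.50 to -3.23), Serpinb2, an inhibitor of plasminogen activators, at 193 against 44.2 CPM (-2.23, -2.35 to -2.12), and Plaur, the urokinase receptor, at 63.0 against 5.69 CPM (-3.55, -3.90 to -3.28). The alarmin Il33 stood at 98.8 against 12.9 CPM (-3.04, -3.26 to -2.84). The genes S100a8, S100a9 and Mmp9 of this list are also on the neutrophil list, and Itga5, Plaur and Slpi are expressed in leukocytes or stroma too. The summed neutrophil list stood at 4490 CPM in the middle control and 463 CPM in the late C-PC library, and its part in the lower wound-edge genes was not tested.

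The 6 wound-edge genes that were higher, a count near the 16.6% over all genes, were Krt17, Gjb2, Gjb6, Tgfa, Sprr1a and Sprr2h. Krt17 stood at 132 against 1441 CPM (3.33, 3.27 to 3.40). The gap junction genes Gjb2 and Gjb6 stood at 97.8 and 17.1 against 1706 and 155 CPM, with log2 ratios of 4.01 (3.94 to 4.09) and 3.06 (2.89 to 3.26). Tgfa, a ligand of the EGF receptor, stood at 18.8 against 163 CPM (2.99, 2.83 to 3.18), while the other EGF receptor ligands Areg and Ereg were not apart and Hbegf was lower (-1.94, -2.21 to -1.70). Sprr1a, whose promoter is shown above (gene at chromosome 3, 92483952 to 92485895), stood at 85.1 against 1199 CPM (3.70, 3.62 to 3.78), and its relative Sprr1b (chromosome 3, 92436809 to 92438789) at 76.3 against 21.5 CPM (-1.93, -2.11 to -1.77). The 2 genes had nearly equal reads in the middle control, 1350 and 1211, and 20427 and 367 in the late C-PC library. Of the Sprr2 genes, Sprr2h was higher (1.91, 1.63 to 2.25), and Sprr2d, Sprr2a1 and Sprr2e were lower, with 464, 102 and 44 reads against 12, 27 and 4.

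**Figure D4:**
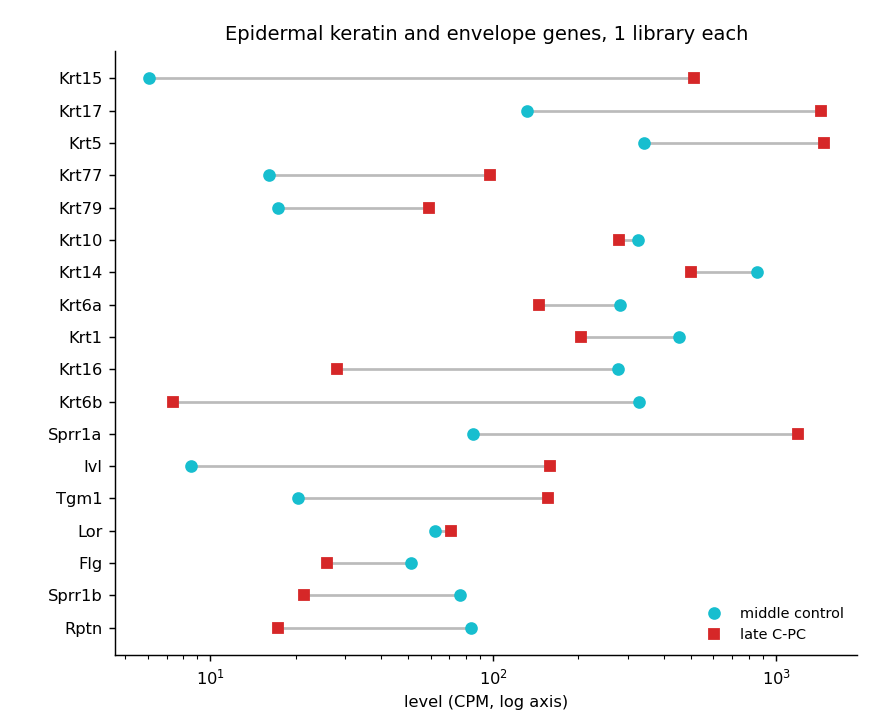
Level (CPM, log axis) of 11 keratin genes and 7 genes of the cornified envelope in the middle control (circles) and the late C-PC library (squares), 1 library each, with a grey line joining the 2 values of a gene. Krt15, Krt17, Krt5, Sprr1a and Ivl are higher in the late C-PC library, Krt16, Krt6b, Sprr1b and Rptn are lower, and Krt10 and Lor nearly coincide.

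Genes of the upper epidermal layers were split as well. Of 13 spinous layer genes 7 were higher and 1 lower, with a median log2 ratio of 1.44. The desmosomal cadherin genes Dsg1a and Dsc1 stood at 47.2 and 51.5 against 797 and 693 CPM (3.96, 3.86 to 4.07, and 3.63, 3.53 to 3.74). The classic keratins of the layer were not higher, with Krt10 at 325 against 279 CPM (-0.33, -0.39 to -0.28) and Krt1 lower at 452 against 205 CPM (-1.25, -1.31 to -1.20). Of 33 genes of the granular layer and the cornified envelope 13 were higher and 5 lower, against 16.6% and 23.1% of all genes. The median of the list was 0.12. Ivl, the involucrin gene, stood at 8.57 against 159 CPM (4.08, 3.85 to 4.36) and the transglutaminase gene Tgm3 at 11.2 against 308 CPM (4.65, 4.45 to 4.89). Lor, the main envelope protein of interfollicular epidermis, stood at 62.2 against 71.0 CPM (0.08, -0.04 to 0.20), Flg, the filaggrin gene, was lower at 51.2 against 25.8 CPM (-1.10, -1.27 to -0.93) and Rptn, the repetin gene, was lower at 83.5 against 17.4 CPM (-2.37, -2.56 to -2.19). Of 13 Lce1 and Lce3 genes that were compared, Lce1m was higher, Lce1f lower and the rest not apart. Barrier lipid genes were higher in 12 of 20 and lower in 4 (median 1.47), against 16.6% and 23.1% of all genes. The ceramidase gene Acer1 stood at 2.71 against 42.6 CPM (3.81, 3.42 to 4.34) and Ugcg, which makes glucosylceramide in many cell types, at 258 against 85.4 CPM (-1.71, -1.80 to -1.62).

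Most leukocyte lists were lower in the late C-PC library. Of 25 neutrophil genes 23 were lower, 1 was higher and 1 was not apart, with a median log2 ratio of -6.33, or -5.99 when genes with 0 reads are set at a floor of 3 reads. Ngp, a granule protein of neutrophil precursors, had 9722 reads in the middle control and 0 in the late C-PC library, at least 3762-fold lower against that floor. S100a9, a subunit of calprotectin, stood at 1008 against 7.40 CPM (-7.18, -7.47 to -6.95), and Csf3r, the G-CSF receptor, at 224 against 3.70 CPM (-5.99, -6.42 to -5.67). The higher gene, Asprv1, is a protease gene of the granular layer that mouse neutrophils also express. The eosinophil granule genes Prg2 and Epx had 756 and 436 reads against 0, at least 293-fold and 169-fold lower. Macrophage genes were lower in 23 of 31 and higher in 2 (median -2.46), with Adgre1 at 174 against 23.1 CPM (-3.02, -3.18 to -2.88), Lyz2 at 3086 against 345 CPM (-3.27, -3.31 to -3.23) and Spp1, the osteopontin gene, at 424 against 5.17 CPM (-6.44, -6.79 to -6.17). Genes of resident macrophages, Cd163 (-0.06, -0.19 to 0.07) and Clec10a (-0.05, -0.22 to 0.11), were not apart, and Retnla, a resistin-like gene of alternative activation, was higher with 4 reads against 338 (5.65, 4.82 to 8.07).

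Inflammatory cytokines and chemokines were lower in 24 of 32 genes and higher in 2, with a median log2 ratio of -3.13. Cxcl5, a neutrophil attractant, had 9783 reads against 7 (-10.28, -11.98 to -9.62), Il1b had 3138 against 22 (-7.24, -8.05 to -6.77) and Il6 had 293 against 3 (-6.05, -9.11 to -5.26). The higher genes were the epithelial chemokines Cxcl14, at 21.0 against 387 CPM (4.09, 3.93 to 4.26), and Ccl27a, with 22 reads against 90 (1.73, 1.13 to 2.56). T and NK cell genes were lower in 19 of 20 (median -2.51), B and plasma cell genes in 7 of 8 (median -3.39, or -3.21 at the floor) and interferon-stimulated genes in 23 of 23 (median -2.78), the last with Rsad2 at 35.3 against 2.05 CPM (-4.13, -4.75 to -3.72). Among 15 Langerhans and dendritic cell genes 10 were lower and 3 higher (median -1.53). Cd207, the langerin gene that defines Langerhans cells of the epidermis, had 13 reads against 42 (1.36, 0.55 to 2.50), while the class II gene H2-Ab1 stood at 120 against 21.5 CPM (-2.58, -2.75 to -2.43). Mast cell genes were split, 3 higher and 3 lower of 10 (median 0.04), against 16.6% and 23.1% of all genes.

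Granulation tissue genes were lower in the late C-PC library. Of 35 matrix genes 34 were lower and none higher, with a median log2 ratio of -2.96, and the list summed to 131124 against 20258 CPM. Col1a1 and Col3a1, the main fibrillar collagens of skin, stood at 26408 and 34117 against 4108 and 5463 CPM (-2.80, -2.81 to -2.79, and -2.76, -2.77 to -2.75). Other members of the list included Tnc, the tenascin-C gene, at 1633 against 79.1 CPM (-4.48, -4.56 to -4.40), Col12a1 at 2711 against 140 CPM (-4.38, -4.45 to -4.33) and Postn, the periostin gene, at 4763 against 519 CPM (-3.31, -3.34 to -3.28), while Sparc, on the same list, had a log2 ratio of -2.03. Matrix protease genes were lower in 21 of 23 and higher in none (median -2.35), with the collagenase gene Mmp13 at 78.2 against 2.88 CPM (-4.82, -5.32 to -4.46) and the inhibitor gene Timp1 at 119 against 6.11 CPM (-4.37, -4.69 to -4.11). Myofibroblast genes were lower in 12 of 21 (median -1.27), but the contractile genes Acta2 (-0.56, -0.62 to -0.49), Myl9 (-0.50, -0.63 to -0.38) and Tpm2 (-0.43, -0.49 to -0.37) were not apart. Lrrc15, a gene of matrix-producing fibroblasts that hair follicles also express, stood at 592 against 780 CPM (0.29, 0.25 to 0.32), unlike the collagens.

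Endothelial genes were lower in 24 of 24 (median -1.95), with Pecam1 at 424 against 97.3 CPM (-2.23, -2.31 to -2.16) and Apln, a gene of sprouting tip cells, at 74.9 against 6.52 CPM (-3.61, -3.93 to -3.35). Pericyte genes were lower in 8 of 10 and higher in 1 (median -1.76), and red cell genes in 7 of 7 (median -2.68). Skeletal muscle genes were lower in 21 of 24 and higher in none (median -2.34), but the fibre types differed. Myh4, the myosin of the fastest fibres, stood at 2182 against 13.4 CPM (-7.44, -7.65 to -7.27), and the slow fibre genes Myh7 and Myl2 had 1553 and 735 reads against 1 and 0. Myh1 and Myh2, of the other fast fibres, were not apart, at 198 and 127 against 312 and 137 CPM (0.54, 0.48 to 0.61, and -0.01, -0.09 to 0.08). The ratio of Myh4 to Myh1 reads therefore turned over between the 2 libraries, from 34620 to 3143 in the middle control and from 229 to 5319 in the late C-PC library.

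Fat and nerve genes were higher in the late C-PC library. Of 20 adipocyte genes 15 were higher and 1 lower (median log2 ratio 2.11), with Adipoq, the adiponectin gene, at 10.5 against 82.2 CPM (2.84, 2.62 to 3.09), Plin1 at 9.39 against 128 CPM (3.63, 3.41 to 3.90) and Cfd at 31.5 against 686 CPM (4.33, 4.21 to 4.47). Of 13 Schwann cell genes 11 were higher and none lower (median 2.11), with Erbb3 at 13.9 against 138 CPM (3.18, 2.99 to 3.40). Sox10, shared by Schwann cells and melanocytes, had 40 reads against 275 (2.51, 2.08 to 3.08). The adipocyte list summed to 6551 CPM in the late C-PC library, above 1932 CPM in the middle control and below 25286 and 48625 CPM in the muscle-rich middle C-PC library and late control. The Schwann cell list summed to 575 CPM in the late C-PC library and 272 CPM in the middle control. It summed to 306 CPM in the middle C-PC library, 893 CPM in the late control, and 282 and 441 CPM in the early control and early C-PC library.

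Proliferation genes were modestly higher in the late C-PC library on the TMM scale, most by less than 2-fold. Of 30 compared, only Ccnb1 and Mcm5 were called higher and none was called lower, against 16.6% and 23.1% of all genes. The median log2 ratio was 0.62, and all 30 ratios were above 0, from 0.14 for Cdk1 to 1.05. Mki67, a marker of cycling cells, stood at 216 against 349 CPM (0.58, 0.52 to 0.64) and Top2a at 108 against 230 CPM (0.98, 0.90 to 1.07). Their summed level was 1255 CPM in the middle control and 2116 CPM in the late C-PC library, against 102 and 119 CPM in the muscle-rich libraries and 1949 and 1920 CPM in the early ones. Of 17 reference genes 3 were lower, against 23.1% of all genes, and none higher (median 0.17). They were B2m, Gusb and Gapdh, the last with 81 and 35 reads, a level that reads shared with its pseudogenes can lower. Hypoxia and glycolysis genes gave 3 higher and 7 lower of 23 (median -0.59), against 16.6% and 23.1% of all genes. The lactate exporter gene Slc16a3 stood at 103 against 7.75 CPM (-3.83, -4.11 to -3.59).

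What the 2 libraries share was described through 51 protein-coding genes with at least 20 CPM in both and at least 10-fold more than in each of the other 4 libraries, a choice made on these values. Of them 36 were higher and 6 lower in the late C-PC library and 9 not apart, with a median log2 ratio of 2.00, and 23 had 0 reads in both muscle-rich libraries. They held the keratins Krt14, Krt5, Krt10, Krt1, Krt6a, Krt16 and Krt17, the desmosomal genes Dsp, Pkp1, Dsc1 and Dsg1a and the envelope genes Lor, Flg, Sprr1a and Sprr1b. Tchh and Krt71 were also among them, while the whole inner root sheath list summed to 187 CPM in the middle control and to between 88.9 and 133 CPM in the other 4 libraries.

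Per transcript length, the most abundant messages among protein-coding genes listed in both tables were of different tissues. Symbols of the Gm and Rik kinds were left out of this ranking. Keratin-associated proteins and hair shaft keratins that were listed only in the late table could not enter it. In the late C-PC library mt-Co1, a mitochondrial gene, led at 16188 TPM (a read share corrected for transcript length), followed by Krt71 at 14188, Krtap7-1 at 12863 and Krtap8-1 at 10713 TPM. In the middle control mt-Co1 stood at 18845 TPM, Col1a1 at 13036, Col3a1 at 11261 and Fth1, the ferritin heavy chain gene, at 10126 TPM. S100a9, at 6259 TPM in the middle control, stood at 39.2 TPM in the late C-PC library, and Lyz2 at 7597 TPM stood at 725 TPM. The mitochondrial genes mt-Co1, mt-Cytb and mt-Nd1 were close to equal in the 2 libraries, with log2 ratios of -0.10, -0.01 and -0.06.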

How the data were processed

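RNA was sequenced from 1 mouse skin library per group, and the authors deposited 1 table for each stage, with a normalized signal value per gene for the C-PC and the control library. The deposited tables also hold a log2 fold change and p-values per the file headers, which were not used here. Within a library every signal value was a small constant plus a whole number of steps, so reads were recovered, with all values whole within 0.1 read. A gene is listed only where its pair of libraries holds at least 2 reads. For the aligner and the counter, the labels used here name none. The submitters' processing notes name hg38, but the gene IDs are of mouse, and 25862 of 26644 genes (97.1%) have the start and end of the GRCm38 annotation.

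The 2 tables were joined on gene ID and scaled together by TMM in edgeR 4.0.16 (R 4.3.3), with a pseudocount of 2 reads, genes of at least 10 reads in 1 library, exact binomial intervals (95%) and a call at 2-fold. The ratios compare these libraries, not the conditions. CPM uses total reads on genes, and TPM the deposited gene lengths. DESeq2 1.42.0 size factors were an alternative, beside other scalings, filters, pseudocounts and folds. The steps used Python 3.11.15 with pandas 2.3.3 and scipy 1.17.1, and were tested on simulated data. Genes named are list members, the 20 highest and lowest ratios and the 20 highest levels, and a few others, chosen after their values were seen. The members and the lists were chosen with earlier results of these data known. Reads of near-identical copies (Krt6a and Krt6b, Sprr2, Lce, hard keratins, keratin-associated proteins, haemoglobins) and of overlapping genes on opposite strands cannot be told apart with certainty. Promoters are from the RefSeq table on GRCm38.p6, without chromosome 18.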

Additional observations from a re-analysis of the deposited data

How the results depend on the processing

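No paired analysis was possible because each group has 1 library. For the same reason no replicate could be left out. DESeq2 size factors, TMM without keratin, keratin-associated protein and trichohyalin genes, and pseudocounts of 0.5 and 8 kept the direction of every list median and named gene, but the pseudocount set the size of ratios with few reads. With 8 in place of 2 the keratin-associated protein median went from 9.69 to 8.67 and the T and NK cell median from -2.51 to -1.94, and 14 named genes moved. Ngp, with 0 reads in the late C-PC library, went from -12.35 to -10.36 with 8 and to -14.35 with 0.5, and Epx and Myl2 likewise to -9.88 and -10.63 with 0.5. Scaling by total reads on genes gave 3252 genes higher and 3652 lower, with a median over all genes of 0.15 in place of 0.04. With this scaling 41 of 164 named genes moved outside their intervals. Krt6a went from -1.06 to -0.95, less than 2-fold. Ratios just below 0 changed sign, such as those of Cd163 and Clec10a, not apart, to 0.05 and 0.06. At a fold of 4, 1220 genes were higher and 1923 lower. Centring on the pan-epithelial list gave 214 higher (1.33% of the calls, against 41.9% by TMM) and 15927 lower, and left 6 list medians at least 2-fold higher and 30 at least 2-fold lower. Under that centring, which subtracts 3.66 from every ratio, the medians became -2.21 for the spinous layer, -2.19 for barrier lipid genes, -1.83 for the companion layer and outer root sheath, -1.72 for hair follicle signals, -2.42 for the sebaceous gland and -1.55 for adipocytes and for Schwann cells. List medians slightly above 0 also became negative, such as -3.04 for proliferation. The named genes that reversed with it had log2 ratios of Adipoq -0.82, Asprv1 -1.76, Ccl27a -1.92, Ccnb1 -2.61, Cd207 -2.30, Cdh1 -0.25, Dsc1 -0.03, Erbb3 -0.48, Gjb6 -0.60, Krt17 -0.33, Krt5 -1.66, Lce1m -1.70, Lgr5 -1.80, Mc5r -0.50, Mcm5 -2.61, Pkp1 -0.82, Plin1 -0.03, Ptch1 -0.93, Scd3 -0.06, Sox10 -1.15, Sprr2h -1.75, Tgfa -0.66 and Trp63 -0.49. Without the muscle list in the total, the keratinocyte markers of the middle control stood at 1497 CPM. With a level of 5 CPM, 125 genes in place of 51 were shared by both libraries. Ratios of genes with a few reads in the middle control, such as the hair shaft keratins, are limited by depth, as their intervals show.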
